A study of Mus musculus with 12 samples.

Results

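Collagen genes were followed in whole testes of mice that lack Sox3 or carry a knock-in at it. The genes were those with a single symbol made of Col, a number, a and a number, which gave 44 of the 22180 genes measured, each represented by the transcript cluster of highest mean over the 12 arrays. They were compared in 3 Sox3-KO testes (KO) and 3 Sox3-Sox2KI testes (KI), both made with CRISPR/Cas9, and in 6 WT testes, of which WT 1, WT 2 and WT 3 came from littermates of KI mice and WT 4, WT 5 and WT 6 from littermates of KO mice. All animals were C57BL/6N, untreated and 2 weeks old, and each testis was hybridised to 1 array. The labels name no Cre or tissue-specific promoter, the number of founder lines is not given in the sources used here, and RNA came from the whole organ. Fewer cells of a type and less RNA per cell therefore cannot be told apart.

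Collagens are secreted or membrane-bound proteins whose chains wind into triple helices. Fibrillar collagens form the tensile fibres of the interstitium. Collagen IV forms the sheet-like network of basement membranes, and in the testis that sheet surrounds each seminiferous tubule, where Sertoli cells and peritubular myoid cells lay it down. Collagen VI forms beaded filaments between the basement membrane and the fibres, and FACIT collagens decorate fibrils. SOX3, a SOXB1 transcription factor, is known in the mouse testis from spermatogonia, the germ cells that start spermatogenesis.

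Of the 44 collagen genes, 38 were above the background limit in all 12 arrays, 4 were above it in some arrays, and Col10a1 and Col19a1 were above it in none. The limit was a log2 value of 5.33, the 95th percentile of 1105 olfactory receptor genes. Array medians lay between 5.74 and 5.82, and the values were used as deposited, without centring the arrays. The result with centred arrays is given under the dependence on processing. The median standard deviation of a collagen gene was 0.16 in KO, 0.11 in KI and 0.12 in WT (log2, n = 3, 3 and 6).

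The targeted gene was read first. Sox3 was at 6.57, 6.6 and 6.65 in KO testes, at 7.26, 6.75 and 6.95 in KI testes, and between 7.21 and 7.36 in the 6 WT testes, with a WT median of 7.28. All 3 KO arrays lay below every other array, and KO minus WT was -0.68 (limma, SE 0.09, adjusted p = 0.0161). KI minus WT was -0.30, with an adjusted p of 0.945. Probe positions within Sox3 were not known, so a signal above the background limit in KO says nothing about protein. The KO arrays differed among themselves, with KO 2 lowest of the 3 for 30 of 44 collagen genes and KO 3 highest for 28. Results are therefore also given without each KO array.

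In KO testes, 2 of the 44 collagen genes rose relative to WT and none fell at an adjusted p under 0.05. Both encode chains of collagen IV. Over all 22180 genes, 2.52% were higher and 2.34% lower by the same rule, 4.86% in either direction, so the share of collagens called, 4.55%, was close to the background. Col4a2 was 1.28-fold higher and Col4a4 1.26-fold higher. The family as a whole was shifted by less than that. The median log2 change of the 44 genes was 0.17 against 0.04 over all genes, and 35 of the 44 changes were above 0, against 59.8% of all genes. With levels set relative to the Sertoli cell markers, the collagen median turned to -0.09, with all genes at -0.21.

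At an unadjusted p under 0.05, 16 collagen genes were higher in KO, which is 36.4% against 14.4% of all genes. On the other side, 1 was lower, Col11a2, against 9.82% of all genes. The 3 KO arrays lay above all 6 WT arrays for 4 collagen genes (Col4a2, Col4a3, Col4a4 and Col5a2), against 6.87% of all genes, and below all 6 for none, against 4.59%. The median change was larger among the brighter collagens. The 27 collagen genes above the median level of all genes had a median change of 0.22, against 0.03 for all genes above it. The other 17 had 0.07, against 0.06 for all genes at or below the median.

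**Figure D1:**
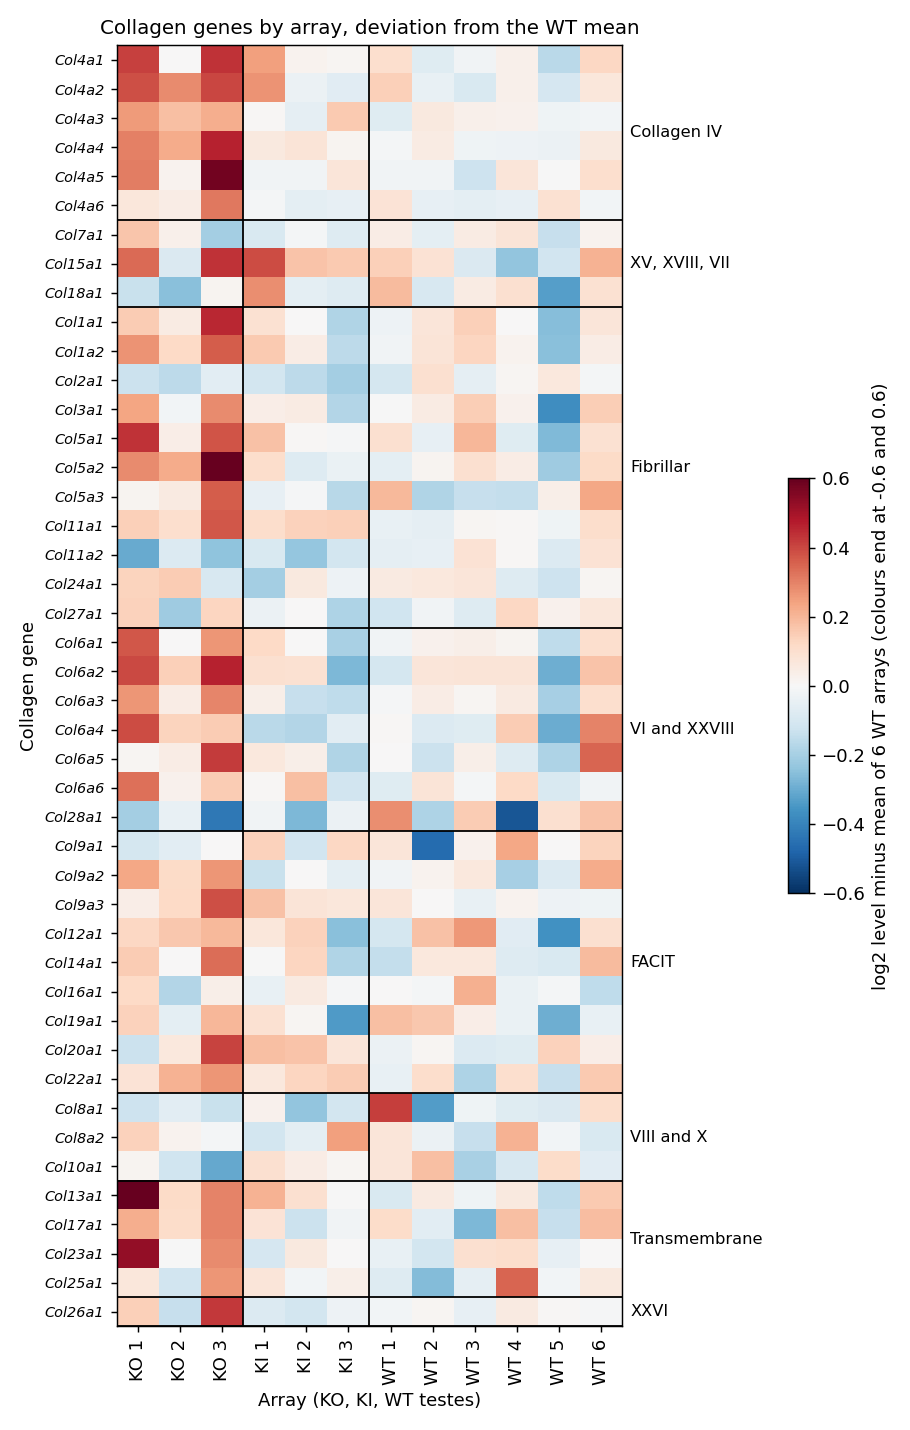
Deviation of each of 44 collagen genes (down the page, grouped by class) from its WT mean, in log2, in the KO, KI and WT arrays (left to right); red is higher and blue lower. Most collagen IV, collagen VI and fibrillar genes were red in KO 1 and KO 3 and paler in KO 2. With levels relative to Sertoli cell markers the collagen median in KO minus WT was -0.09, with all genes at -0.21.

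Collagen IV had 6 of 6 genes with a positive change in KO, 2 of them past the test, and a class median of 0.29. Col4a1 and Col4a2 encode the chains of the widespread collagen IV trimer and lie side by side on chromosome 8, read in opposite directions from a shared start region. Col4a3 and Col4a4 lie next to each other on chromosome 1, and their chains join that of Col4a5 in another trimer. Col4a5 and Col4a6 are neighbours on the X chromosome. The promoter windows of 3 of these genes are shown, those of the 2 genes that rose and that of Col4a1, which shares the start region of Col4a2. No window was available for Col4a3, so whether it shares a start region with Col4a4 was not read. Each is read 5′ to 3′ on the gene's strand from 250 bases before to 50 bases after the start, from RefSeq on GRCm38.p6. Col4a1 is chr8:11312777-11313076 (minus strand), Col4a2 is chr8:11312555-11312854 (plus strand) and Col4a4 is chr1:82586800-82587099 (minus strand). Capitals mark CCAAT or GGGCGG on either strand.
Col4a1: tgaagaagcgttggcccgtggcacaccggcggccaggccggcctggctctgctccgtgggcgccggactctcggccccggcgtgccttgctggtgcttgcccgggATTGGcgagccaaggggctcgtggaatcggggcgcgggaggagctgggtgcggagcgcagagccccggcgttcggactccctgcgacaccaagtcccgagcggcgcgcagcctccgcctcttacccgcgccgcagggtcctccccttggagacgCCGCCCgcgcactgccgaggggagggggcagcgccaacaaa
Col4a2: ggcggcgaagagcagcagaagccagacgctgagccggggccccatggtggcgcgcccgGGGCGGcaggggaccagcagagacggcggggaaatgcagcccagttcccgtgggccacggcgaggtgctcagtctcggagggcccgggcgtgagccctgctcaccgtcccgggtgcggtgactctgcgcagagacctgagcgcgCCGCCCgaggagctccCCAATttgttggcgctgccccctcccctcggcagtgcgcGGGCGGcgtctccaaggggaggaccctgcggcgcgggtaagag
Col4a4: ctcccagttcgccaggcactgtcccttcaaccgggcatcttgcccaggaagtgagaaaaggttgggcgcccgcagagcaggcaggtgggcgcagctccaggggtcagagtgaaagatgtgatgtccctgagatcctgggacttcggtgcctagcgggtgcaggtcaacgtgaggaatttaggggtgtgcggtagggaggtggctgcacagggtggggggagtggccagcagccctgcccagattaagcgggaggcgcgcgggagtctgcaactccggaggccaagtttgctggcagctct
The Col4a1 and Col4a2 windows overlap by 78 bases. The Col4a2 window held 1 CCAAT and 3 GGGCGG, the Col4a1 window 1 of each, and the Col4a4 window neither. The GGGCGG match of Col4a1 lies in the shared bases and is the same site as 1 of the 3 in Col4a2. The letters ACAATG, the only form of a SOX site searched, were on neither strand of the 3 windows. Other forms of a SOX site were not searched, so this does not show that the windows lack one. The TATA box TATAAA was in none of them either. Of all 32851 promoter windows of this length, 37.4% held CCAAT, 35.7% GGGCGG, 12.6% ACAATG and 13.6% TATAAA. Among 38 windows of the 35 collagen genes in the table, 13 held CCAAT, 23 GGGCGG, 5 TATAAA and 1 ACAATG, that of Col28a1. The median GC content was 59.8% in the collagen windows and 52.7% over all windows, and the counts were not adjusted for it. These counts describe letters in a window, and in the 3 windows shown no match overlapped a match of another motif.

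Col4a2 was at 8.33, 8.23 and 8.35 in KO testes, at 8.22, 7.91 and 7.88 in KI testes, and at 7.84, 7.94 and 8.09 in WT testes (lowest, median and highest). The 3 KO arrays lay above every KI and WT array, and KI 1 lay above every WT array. KO averaged 8.30 ± 0.06 and WT 7.95 ± 0.10 (SD, n = 3 and 6), a difference of 0.36 (limma, SE 0.09, 95% interval 0.17 to 0.54, adjusted p = 0.0395). Col4a1, which shares its start region, was at 8.63, 8.22 and 8.65 in KO, at 8.47, 8.24 and 8.23 in KI, and at 8.06, 8.23 and 8.34 in WT. KO 1 and KO 3 were above all other arrays, while KO 2 lay inside the WT range. The difference for Col4a1 was 0.28 (SE 0.10, adjusted p = 0.124), which did not pass.

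Col4a4 was at 8.23, 8.15 and 8.39 in KO testes, at 7.99, 8.01 and 7.95 in KI testes, and at 7.89, 7.91 and 7.99 in WT testes. Every KO array was above every KI and WT array, and the KI and WT arrays overlapped. KO averaged 8.26 ± 0.12 and WT 7.93 ± 0.04, a difference of 0.33 (SE 0.06, interval 0.19 to 0.47, limma adjusted p = 0.031). Its neighbour Col4a3 was at 8.44, 8.37 and 8.40 in KO, at 8.19, 8.13 and 8.34 in KI, and at 8.11, 8.19 and 8.24 in WT. KO again lay above all other arrays, with KI 3 as the nearest, and the difference from WT was 0.22 (SE 0.06, adjusted p = 0.0636). Col4a5 was at 6.72, 6.44 and 7.0 in KO, at 6.40, 6.39 and 6.49 in KI, and at 6.29, 6.40 and 6.52 in WT. KO 2 was inside the WT range and the other KO arrays above it (0.30, adjusted p = 0.0939). Col4a6 was at 5.90, 5.88 and 6.15 in KO, at 5.83, 5.78 and 5.79 in KI, and at 5.78, 5.81 and 5.93 in WT. KO 3 alone was above the WT range (0.14, adjusted p = 0.255).

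The calls of Col4a2 and Col4a4 lay near the threshold. Without any 1 of WT 1, WT 2, WT 3 and WT 5, the adjusted p of Col4a4 was between 0.0594 and 0.0656 and that of Col4a2 between 0.0634 and 0.0791. Without KO 1 they were 0.111 for Col4a4 and 0.14 for Col4a2, and without KO 3 they were 0.148 and 0.166. Without KI 2 or KI 3 Col4a2 alone lost its call (0.0511 and 0.0519). The changes themselves stayed between 0.26 and 0.38 for Col4a4 and between 0.34 and 0.39 for Col4a2 when 1 array was left out. With the pachytene marker mean as a covariate, Col4a4 was at 0.29 (adjusted p = 0.652) and Col4a2 at 0.23 (adjusted p = 0.826). With the early meiotic mean instead, a setting chosen after seeing the data, Col4a4 was at 0.22 and Col4a2 at 0.12, and neither was called. Relative to the Sertoli cell markers they were at 0.07 and 0.10.

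**Figure D2:**
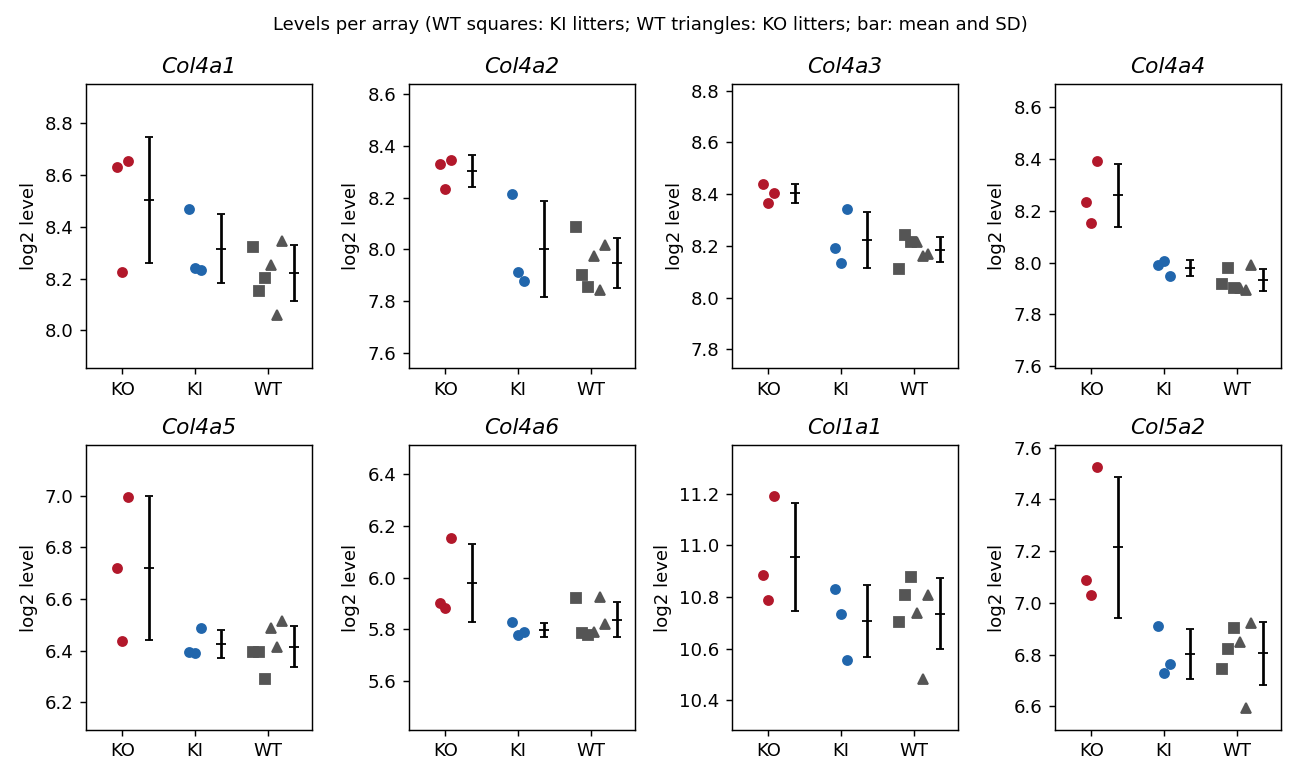
Log2 level of the 6 collagen IV genes, Col1a1 and Col5a2 in each array, KO left, KI centre and WT right (squares, WT of KI litters; triangles, WT of KO litters), with the mean and SD beside each group; each panel has its own axis. The 3 KO points lie above all others for Col4a2, Col4a3, Col4a4 and Col5a2, and KO 2 falls among the WT points for Col4a1 and Col4a5.

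Fibrillar collagens had 0 of 11 past the adjusted threshold, 9 of 11 changes above 0 and a class median of 0.17. Col5a2, a chain of collagen V that helps set fibril width, was at 7.09, 7.03 and 7.53 in KO testes, at 6.91, 6.73 and 6.76 in KI testes, and at 6.59, 6.84 and 6.92 in WT testes. All KO arrays lay above all others, KO 3 by the widest margin. The difference was 0.41 (SE 0.11, interval 0.17 to 0.65) and its limma adjusted p was 0.0524. Col1a1, the main chain of collagen I, was at 10.89, 10.79 and 11.19 in KO, at 10.83, 10.74 and 10.56 in KI, and at 10.48, 10.77 and 10.88 in WT. KO 2 lay within the WT range, and the difference of 0.22 (SE 0.11, adjusted p = 0.235) did not pass. Its partner chain Col1a2 differed by 0.25, Col3a1 by 0.17, Col5a1 by 0.28, Col11a1 by 0.21 and Col5a3 by 0.14, with adjusted p between 0.0984 and 0.471. Col24a1 (0.06) and Col27a1 (0.02) were close to 0. Col1a2 and Col5a1 each had a dimmer cluster, which differed by 0.01 and 0.001 between KO and WT.

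Changes below 0 in this class were those of Col11a2 and Col2a1, both known from cartilage. Col11a2, a chain of collagen XI, was at 5.75, 5.98 and 5.81 in KO testes, at 5.96, 5.82 and 5.95 in KI testes, and at 5.97, 6.04 and 6.14 in WT testes. KO 2 was just above the lowest WT array and the other mutant arrays were below all WT arrays. The KO difference was -0.21 (SE 0.07, limma adjusted p = 0.101). Col2a1, the collagen II chain, was at 6.21, 6.18 and 6.27 in KO, at 6.23, 6.18 and 6.13 in KI, and at 6.23, 6.34 and 6.43 in WT. The KO difference of -0.12 had an adjusted p of 0.286. Neither passed with all 12 arrays on the deposited scale, and Col11a2 was called lower in KO without KO 2. Relative to the Sertoli cell markers, which moved all genes to a median of -0.21, Col11a2 was called at -0.47 (adjusted p = 0.0162) and Col2a1 at -0.37 (adjusted p = 0.0189). That setting called 5339 of the 22180 genes, and 5 of the 44 collagens, all lower.

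Collagen VI and the related Col28a1 had 0 of 7 past the threshold, 6 of 7 changes above 0 and a median of 0.20. Col6a1, a core chain of the beaded filament, was at 10.30, 9.93 and 10.19 in KO testes, at 10.05, 9.93 and 9.73 in KI testes, and at 9.77, 9.95 and 10.03 in WT testes. KO 1 and KO 3 were above all WT arrays and KO 2 was below the WT median. The difference was 0.21 (SE 0.09, limma adjusted p = 0.189). The other core chains Col6a2 and Col6a3 differed by 0.33 (adjusted p = 0.112) and 0.20 (adjusted p = 0.163), and Col6a4, Col6a5 and Col6a6 by 0.16 to 0.23. A dimmer cluster of Col6a1 differed by 0.28. Col28a1 was at -0.22 (SE 0.16, adjusted p = 0.415) and was above the background limit in 9 of 12 arrays.

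FACIT collagens had 0 of 9 measured genes past the threshold, and Col21a1 was not among the genes measured here. Changes ran between -0.06 (Col9a1) and 0.20 (Col9a2), with a median of 0.16 and 7 of 9 above 0. Col9a2, a chain of collagen IX, was at 7.68, 7.56 and 7.71 in KO testes, at 7.31, 7.45 and 7.39 in KI testes, and at 7.25, 7.44 and 7.67 in WT testes. KO 1 and KO 3 were above all WT arrays, KO 1 narrowly, and the adjusted p was 0.173. Col9a1 was above the background limit in 7 arrays and Col12a1 in 11.

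Of the transmembrane collagens, 0 of 4 passed and 4 of 4 changes were above 0, with a median of 0.24. Col23a1 was at 7.31, 6.78 and 7.07 in KO testes, at 6.69, 6.85 and 6.79 in KI testes, and at 6.68, 6.77 and 6.89 in WT testes. KO 2 sat in the middle of the WT arrays, and the difference was 0.27 (SE 0.10, limma adjusted p = 0.126). Col13a1, a collagen of cell contacts, was at 7.34, 6.73 and 6.91 in KO, at 6.82, 6.71 and 6.61 in KI, and at 6.46, 6.62 and 6.77 in WT. It differed by 0.38 (SE 0.12, adjusted p = 0.0767), and KO 1 was the highest array. Col17a1 and Col25a1 were at 0.21 and 0.07.

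The collagens of the basement membrane zone other than collagen IV showed no common direction. Col15a1, whose protein bridges basement membrane and interstitium, was at 7.10, 6.67 and 7.19 in KO testes, at 7.15, 6.93 and 6.92 in KI testes, and at 6.52, 6.76 and 6.97 in WT testes. KO 1, KO 3 and KI 1 were above all WT arrays and the rest overlapped. Col15a1 differed by 0.23 in KO (SE 0.13, limma adjusted p = 0.291). Col18a1, the precursor of endostatin, was at 7.84, 7.72 and 7.99 in KO, at 8.26, 7.92 and 7.90 in KI, and at 7.65, 8.04 and 8.17 in WT. All 3 KO arrays lay inside the WT range (-0.12, adjusted p = 0.573). The anchoring fibril gene Col7a1 was at -0.003 (SE 0.08).

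Short-chain network collagens had 1 of 3 changes above 0. Col8a2 was at 5.68, 5.57 and 5.53 in KO testes, at 5.44, 5.49 and 5.79 in KI testes, and at 5.41, 5.52 and 5.75 in WT testes, and the KO values all lay inside the WT range. Col8a1 (-0.11) and Col10a1 (-0.14) were dim, and Col10a1 was never above the background limit. Col26a1 was at 6.33, 6.04 and 6.6 in KO, at 6.10, 6.07 and 6.15 in KI, and at 6.13, 6.18 and 6.24 in WT. Its KO values fell on both sides of the WT range, KO 2 below it and the others above (0.14, limma adjusted p = 0.396).

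**Figure D3:**
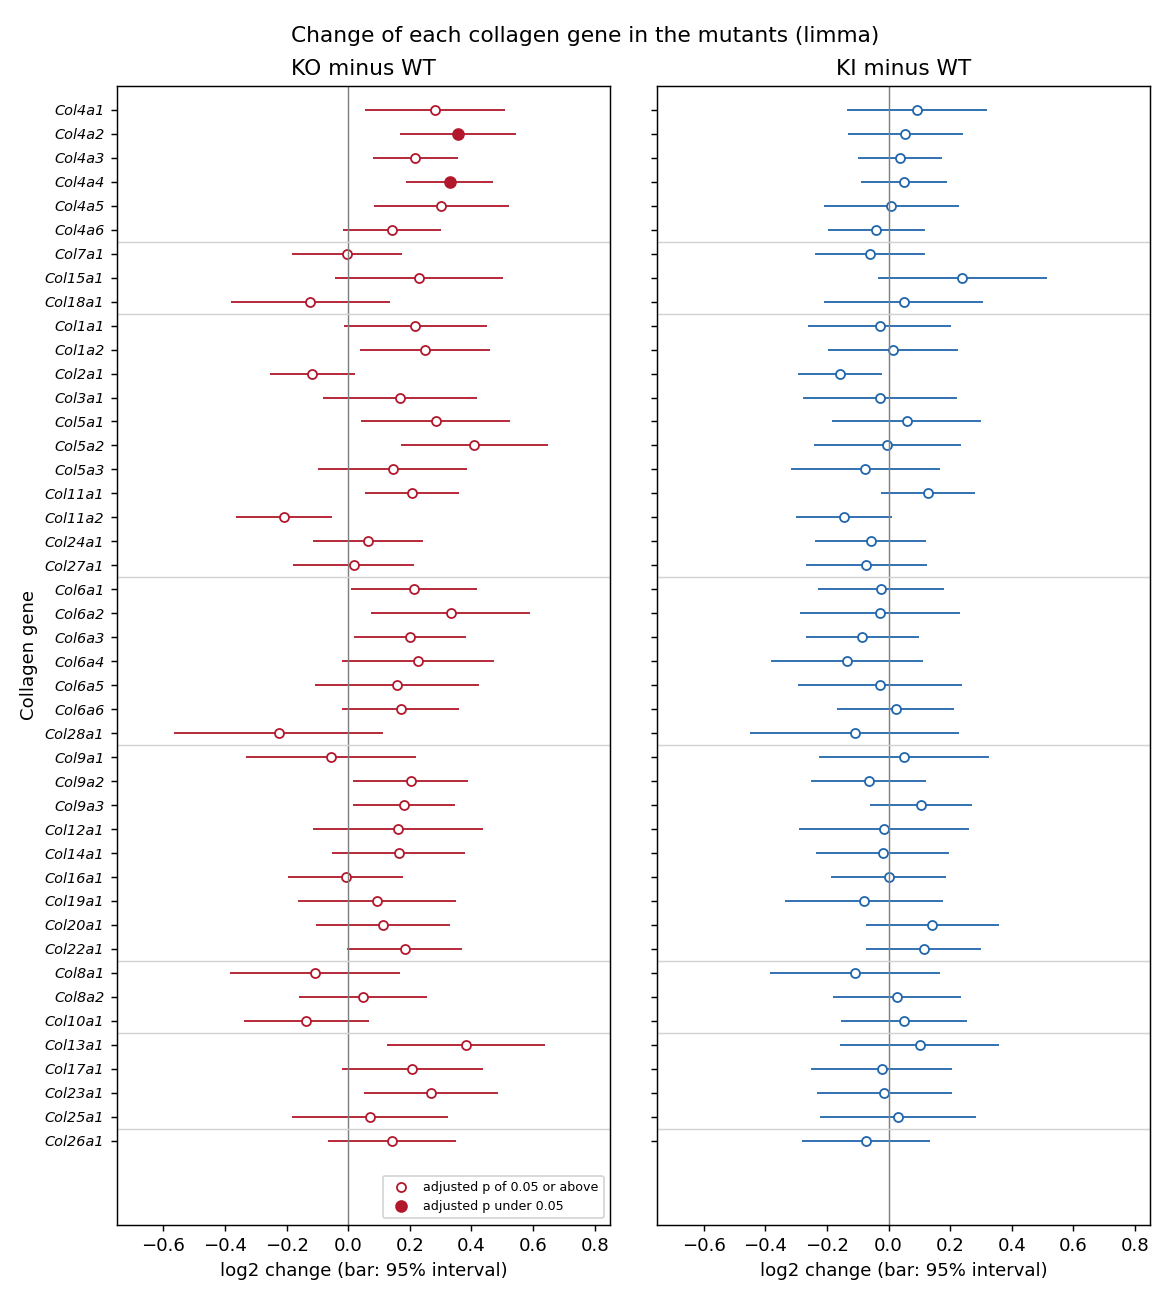
Log2 change of each of the 44 collagen genes in KO minus WT (left) and KI minus WT (right) with its 95% interval from limma; filled points have an adjusted p under 0.05. Col4a2 and Col4a4 are the filled points, and most KO points lie right of 0 (median 0.17). Relative to Sertoli cell markers the KO median was -0.09, with all genes at -0.21. The KI points lie around 0 (median -0.01).

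The KO testes did not move as 1 group. KO 2 had the lowest KO value for 30 of 44 collagen genes and KO 3 the highest for 28. The median deviation of the 44 genes from the WT mean was 0.15 in KO 1, 0.04 in KO 2 and 0.28 in KO 3, against a range of -0.09 (WT 5) to 0.09 (WT 6) among WT arrays. By this collagen median KO 2 was inside the WT range and the other KO arrays outside it. The same median over all genes was 0.025 in KO 1, 0.009 in KO 2 and 0.083 in KO 3. Among WT arrays it ran from -0.009 (WT 3) to 0.016 (WT 6), so KO 3 was also shifted over all genes. KO 2 was also the KO testis with the highest early meiotic mean (8.72) and the lowest Sertoli (9.38), Leydig (8.57), stromal (7.94) and endothelial (6.82) means of the group. Without KO 2, 9 collagen genes were higher and 1 lower in KO (Col11a2), the higher ones being Col4a1, Col4a2, Col4a4, Col4a5, Col5a1, Col5a2, Col13a1, Col23a1 and Col26a1. Over all genes the calls then numbered 2323, against 1078 with KO 2. Leaving out the KO array that was most often lowest favours higher calls by itself, so these calls are not separate evidence of a rise. Without KO 1 or without KO 3 no collagen gene was called, with 3 and 2 genes called in all.

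Markers of the cells of the testis were read beside the collagens, against shares of 2.52% higher and 2.34% lower over all genes. The mean over 16 early meiotic prophase genes was 8.05, 8.72 and 8.14 in KO testes and between 8.86 and 9.20 in WT testes, and 12 of the 16 passed the test as lower in KO. Pachytene and later genes had 5 of 12 lower. The mean over 15 Sertoli cell markers was between 9.38 and 9.59 in KO testes and between 9.18 and 9.38 in WT testes, with 2 of 15 higher. Leydig cell markers lay between 8.57 and 8.90 in KO and between 7.80 and 8.44 in WT, with 1 of 7 higher. Peritubular markers lay between 8.11 and 8.19 in KO and between 7.92 and 8.06 in WT, with 1 of 10 higher. Stromal markers lay between 7.94 and 8.41 in KO and between 7.73 and 8.12 in WT, with 2 of 10 higher. Endothelial markers (6.82 to 7.24 in KO, 6.81 to 7.06 in WT) and macrophage markers (6.59 to 6.85 in KO, 6.56 to 6.80 in WT) had 0 of 10 each past the adjusted threshold. Undifferentiated spermatogonia markers had 3 of 10 higher. Markers of the epididymis and efferent ducts had 0 of 11 past the threshold, with 4 of the 11 under the background limit in every array. The part of these cell types in the collagen values was not tested.

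Among WT testes, WT 5 had the lowest value of the 6 for 21 of 44 collagen genes and WT 6 the highest for 17. These 2 testes stood at opposite ends for many collagens. The fibrillar mean was 7.39 in WT 5 and 7.61 in WT 6, and the stromal marker mean was lowest in WT 5 (7.73). The collagen IV mean varied less among WT testes, between 7.37 and 7.48, and was 7.71, 7.55 and 7.82 in KO testes.

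**Figure D4:**
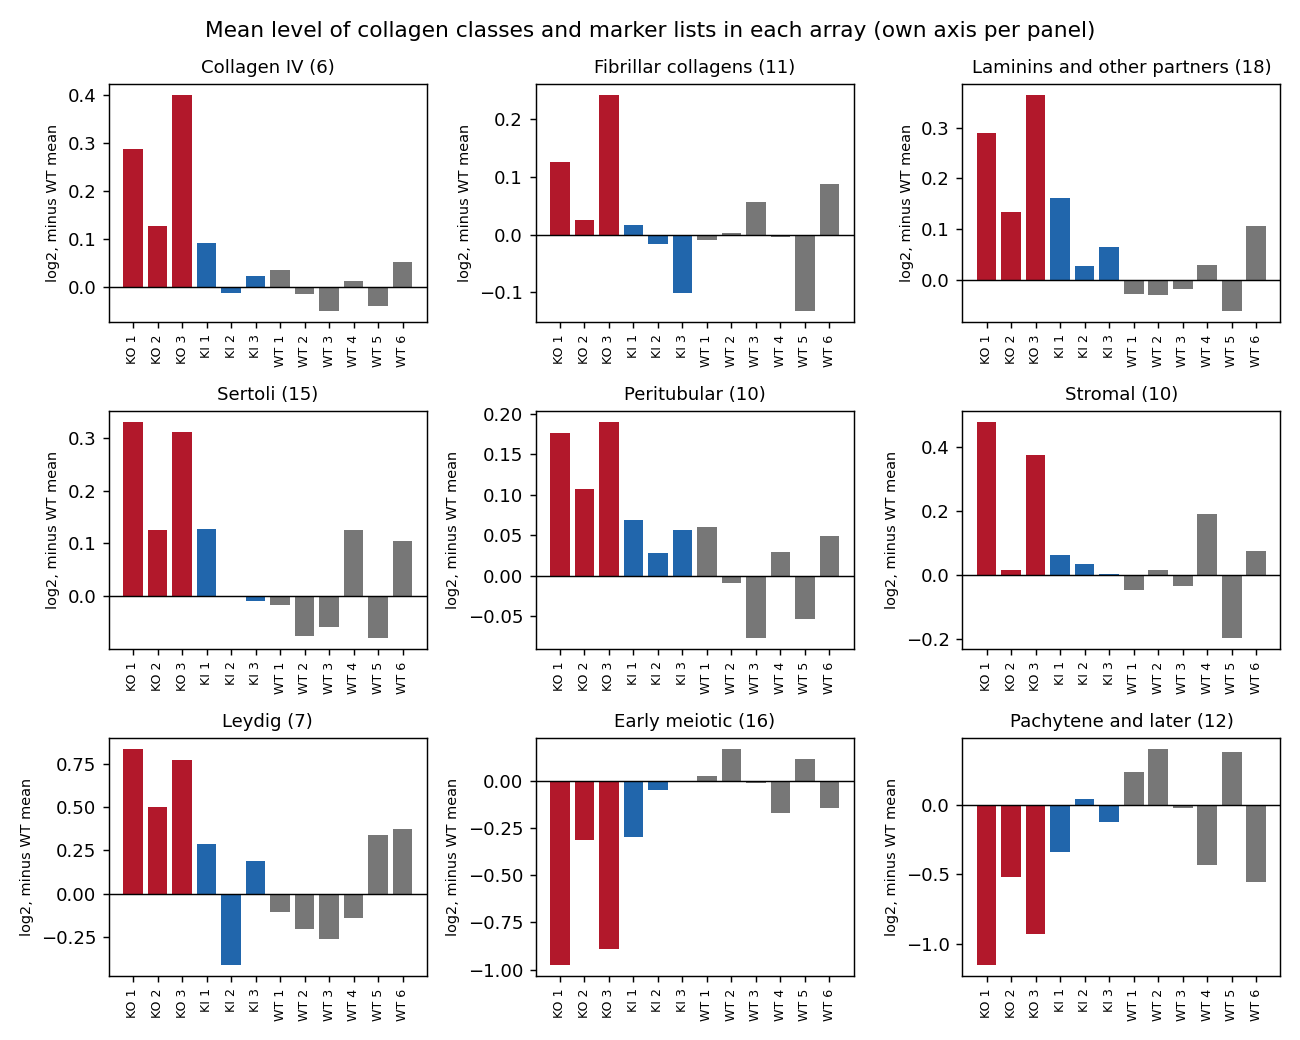
Mean log2 level of 3 groups of matrix genes and 6 marker lists in each array, minus the WT mean (KO red, KI blue, WT grey; number of genes in brackets; each panel has its own axis). Collagen IV and its partners were above all WT arrays in the 3 KO arrays, and fibrillar collagens were above all WT arrays in KO 1 and KO 3. Early meiotic genes were below all WT arrays in every KO array. KI 1 was also above all WT arrays for collagen IV and its partners, and below all of them for early meiotic genes. Scaled to Sertoli cell markers, the median change in KO minus WT was -0.09 for collagens and -0.21 for all genes.

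In KI testes no collagen gene passed the test against WT. The background by this rule was 0% of all genes, and the smallest adjusted p over all genes was 0.945, by limma. At an unadjusted p under 0.05, 0 collagens were higher (2.33% of all genes) and 1, Col2a1, was lower (2.91%). The median collagen change was -0.01, the changes ran between -0.16 and 0.24, and 20 of 44 were above 0, against 49.6% of all genes. Col2a1 was at -0.16 (SE 0.06, interval -0.30 to -0.02, adjusted p = 0.945), and the 3 KI values lay below the 6 WT values, KI 1 by less than 0.01. Col11a2 was at -0.15 (adjusted p = 0.959), also below all WT arrays, and Col11a1 was above all of them (0.13). Over all genes, 1.31% lay below and 1.79% above. Col15a1 had a change of 0.24 (interval -0.04 to 0.51, adjusted p = 0.976). Collagen IV changes in KI ran between -0.04 (Col4a6) and 0.09 (Col4a1), with intervals of -0.13 to 0.24 for Col4a2 and -0.09 to 0.19 for Col4a4. The median half-width of a collagen interval was 0.22.

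Set directly against KO, KI testes had a median collagen change of -0.18, against -0.05 over all genes. Relative to the Sertoli cell markers the collagen median was 0.04, with all genes at 0.17. On the deposited scale the change was above 0 for 8 of 44 collagen genes, against 40% of all genes. No collagen gene passed, nor did any other gene by limma (background 0%), and the smallest collagen adjusted p was 0.143 (Col4a4, -0.28, SE 0.07). At an unadjusted p under 0.05, 11 collagens were lower in KI than in KO (25%, against 10.8% of all genes) and 0 higher (against 7.16%). Col5a2 was at -0.41 (interval -0.69 to -0.14, adjusted p = 0.159) and Col4a2 at -0.30 (interval -0.52 to -0.09, adjusted p = 0.177). The KI arrays were below all KO arrays for 11 collagen genes, against 12.6% of all genes, and above all of them for none, against 9.56%. Of the 11, 4 were in collagen IV (Col4a2, Col4a3, Col4a4 and Col4a6). The others were Col5a2, Col5a3, Col6a2, Col6a3, Col6a4, Col9a2 and Col17a1. This comparison shares its KO arrays with KO minus WT, so its values are not separate evidence for the KO difference. The early meiotic mean was between 8.73 and 9.02 in KI and between 8.05 and 8.72 in KO.

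Against littermates alone no collagen gene was called. KO minus KO littermate WT had 2 genes called in all (0.00902%), and the smallest collagen adjusted p was 0.155. Col4a4 was at 0.33, Col4a2 at 0.36, Col5a2 at 0.43 and Col4a3 at 0.22, and the collagen median was 0.17, against 0.03 over all genes. At an unadjusted p under 0.05, 10 collagens were higher (9.22% of all genes) and 1 lower (6.47%). The KO arrays lay above the 3 littermate arrays for 7 collagen genes (10.2% of all genes) and below them for 1, Col2a1 (7.13%). In KI minus KI littermate WT the median was -0.02 and no collagen gene passed (background 0%), with 0 higher (2.44% of all genes) and 0 lower (2.06%) at an unadjusted p under 0.05. Between the control groups, WT of KI litters minus WT of KO litters had a collagen median of 0.01 and no call (background 0%), with 0 higher (1.94%) and 1 lower (3.35%) at an unadjusted p under 0.05, Col25a1 (-0.26). The KO effect minus the KI effect within litters was the test of a difference between the mutants' effects. It called no collagen gene (background 0%), its smallest collagen adjusted p was 0.847, and at an unadjusted p under 0.05 6 collagens were higher (3.59% of all genes) and 0 lower (2.24%). Its collagen median was 0.17, against 0.02 over all genes. Col4a4 was at 0.28 (interval 0.05 to 0.52) and Col5a2 at 0.45 (interval 0.04 to 0.86). Both genes were named for small p in comparisons that use the same KO arrays. Their intervals are not adjusted for that choice and are not separate evidence.

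The proteins that make, anchor and cut collagen were read in the same fit. Of 18 basement membrane partners of collagen IV, 6 rose in KO and none fell, against 2.52% of all genes higher and 2.34% lower. The list median was 0.27, against 0.04 over all genes. Laminin chains accounted for 4 of them. Lama2 was at 10.45, 10.10 and 10.45 in KO testes and at 9.79, 9.83 and 10.003 (lowest, median, highest) in WT testes (0.46, limma adjusted p = 0.0313), with no overlap. Lamb1 rose by 0.48 (adjusted p = 0.0354), Lamc3 by 0.42 (adjusted p = 0.0364) and Lama3 by 0.37 (adjusted p = 0.0371). The matricellular proteins Smoc2 (0.45) and Smoc1 (0.50) also passed, with Smoc1 at 8.70, 8.38 and 8.89 in KO and up to 8.40 in WT, which KO 2 did not exceed.

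Among 20 enzymes of collagen biosynthesis and folding, 1 rose and 1 fell, against 2.52% of all genes higher and 2.34% lower. Crtap, a subunit of the prolyl 3-hydroxylation complex, was at 9.92, 9.50 and 9.91 in KO testes and between 9.14 and 9.51 in WT testes. KO 2 overlapped the highest WT array, and the rise was 0.48 (limma adjusted p = 0.0352). P4ha1, the catalytic subunit of a prolyl hydroxylase that stabilises the triple helix, was at 8.56, 8.63 and 8.53 in KO and between 8.75 and 8.83 in WT. The groups did not overlap and the change was -0.22 (adjusted p = 0.044). Of 13 genes of propeptide processing and crosslinking, 1 rose, Bmp1, which trims the C-terminal propeptide of fibrillar collagens (0.49, adjusted p = 0.031).

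Collagen turnover had 2 of 14 genes higher, against 2.52% of all genes, and both are matrix metalloproteinases. Mmp2, a gelatinase that cuts collagen IV, was at 8.97, 8.68 and 8.96 in KO testes and between 8.20 and 8.61 in WT testes (0.50, limma adjusted p = 0.0311). Mmp14, the membrane enzyme that activates pro-MMP2, was at 10.70, 10.38 and 10.73 in KO and between 9.92 and 10.31 in WT (0.50, adjusted p = 0.0367). For both genes the KO arrays lay above the WT arrays. Of 11 collagen receptors, 1 rose, Antxr2, which binds collagen IV and laminin (0.39, adjusted p = 0.0421). Of 20 fibril-associated glycoproteins and proteoglycans, 1 rose, Tgfbi, at 9.99, 9.81 and 9.95 in KO and between 9.06 and 9.44 in WT (0.70, adjusted p = 0.0143). Tgfbi encodes a secreted protein that binds collagens and integrins. None of the genes in these 6 lists passed in KI minus WT or KI minus KO, nor did any other gene. Of the 18 basement membrane partners, 16 had a change above 0 in KI minus WT, against 49.6% of all genes. Their median change there was 0.08. Relative to the Sertoli cell markers, a setting that called 5339 of the 22180 genes, Tgfbi (0.44), Mmp14 (0.25) and P4ha1 (-0.48) were still called. Crtap, Bmp1, Mmp2, Antxr2, Lama2, Lamb1, Lamc3 and Smoc2 were then at 0.13 to 0.24 and not called. With the early meiotic mean as a covariate, Mmp14 was at -0.01 and Lamb1 at -0.05, and neither was called.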

How the data were processed

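Expression was measured with Affymetrix whole-transcript arrays, 1 per testis, on Trizol-extracted, DNase-treated RNA, per the labels' protocols. The authors deposited log2 expression values for 41345 transcript clusters. The tools listed, without a role, per the submitters' processing notes are Partek 6.6, Affymetrix Expression Console and RMA. The filters applied and the annotation release were not stated there. A common RMA run gives arrays a common distribution, so changes are relative to the other transcripts of an array. Clusters with 1 symbol in the platform annotation (23521) gave 22180 genes, each the cluster of highest mean; 3 collagen genes had another cluster. All 44 collagen genes matched GRCm38.p6 by Entrez number. Arrays give no counts, and their number limits the precision.

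Tests were two-sided limma 3.58.1 fits in R 4.3.3 (lmFit and eBayes) over all genes and 12 arrays, with 3 genotype groups, or 4 label groups for the litter comparisons, and Benjamini-Hochberg adjustment at 0.05 over all 22180 genes. No dim gene was left out. The labels call the replicates biological. Tests were checked on simulated data. Tables and figures used Python 3.11.15, pandas 2.3.3, numpy 2.4.6 and matplotlib 3.10.9.

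The collagen genes, their classes and the other lists were chosen with earlier results of these data known. Genes given by array were those past the threshold in any comparison, the 3 of smallest p in each of KO minus WT, KI minus WT and KI minus KO, the gene of highest mean in each class, and collagen IV; Col13a1 and some values were added after they were seen. In partner lists, up to 4 called genes were named by smallest p, and Lama3 and Smoc1 were added. No list was tested as a set. Alternatives were normalization, filters, cluster choice, variance model, array weights, covariates, a replicate block, the arrays in the fit and leaving out each array.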

Additional observations from a re-analysis of the deposited data

Results flagged for a closer look

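Among the 45 genes read for single arrays that stand apart within the WT group (the 44 collagens and Sox3), 3 had 1 array whose gap to the nearest other, as a share of the group's range, was above the 95% critical value of Dixon's test for 6 arrays. Chance alone gives this in about 1 in 20 groups. Col3a1, the fibrillar collagen III chain, was at 9.44 in WT 5, against 9.81 to 9.96 in the other WT testes. Col6a3 was at 7.75 in the same array, against 7.94 to 8.05 in the others. Col9a1 was at 4.87 in WT 2, under the background limit, against 5.33 to 5.56 in the others. Groups of 3 arrays, KO and KI, were not read in this way.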

How the results depend on the processing

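Every alternative run left 0 collagen calls in KI minus WT, in KI minus KI littermate WT, between the WT groups and in the difference of the mutant effects. The count of collagen genes higher in KO than in WT, 2 as reported, was 5 with genes above the background limit only (42 tested), 5 with an intensity trend and robust variance, and 6 with genes above the median level only (27 tested). It was 1 (Col4a4) with each array centred on its median and with array quality weights. It was 0 with the pachytene mean or, added after seeing the data, the early meiotic mean as a covariate, with only the arrays compared in the fit, and with levels relative to Sertoli cell markers, where 5 were lower (Col2a1, Col10a1, Col11a2, Col18a1 and Col27a1). Leaving out 1 array in turn gave 0 to 9 higher and 0 to 1 lower. It was 0 without WT 1, WT 2, WT 3, WT 5, KO 1 or KO 3, and 1 without KI 2 or KI 3. The same gave 0 to 3 lower collagens in KI minus KO and 0 to 1 higher in KO minus KO littermate WT, both highest without KO 2. All genes called in KO minus WT, 1078 as reported, numbered between 1 (either covariate) and 5339 (Sertoli scaling), 2459 above the median level, 2190 above the background limit, 2048 with the trend and 30 with only the arrays compared. Leaving out 1 array gave 2 to 2323. Over all alternatives, KI minus KO had 0 to 721 genes called (0 as reported), KO minus KO littermate WT 0 to 605 (2 as reported) and the WT groups 0 to 50 (0 as reported). Signal over background limits the 6 collagen genes not above the limit in every array.

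Relative to Sertoli cell markers, which moved the median of all genes in KO minus WT to -0.21, the collagen medians were -0.0871 in KO minus WT, 0.0354 in KI minus KO, -0.0331 in KO minus KO littermate WT, -0.107 in KI minus KI littermate WT, 0.1067 between the WT groups and 0.0518 in the difference of effects. With the pachytene covariate they were 0.0572, -0.059 and 0.0682 in KO minus WT, KI minus KO and KO minus KO littermate WT. With the early meiotic covariate they were -0.0643, 0.0037 and -0.0504, and 0.0024 in the difference of effects. That covariate also turned Mmp14 to -0.0112 and Lamb1 to -0.0505 in KO minus WT. The cause was not tested.

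The replicate block left 0 collagens called in KO minus WT, with limma adjusted p of 0.0762 for Col4a4 and 0.0613 for Col4a2. The WT arrays of KO litters share their numbers with no other array, so with the block they did not enter this difference. The changes, 0.3266 for Col4a4 and 0.3546 for Col4a2, match the KO mean minus the mean of WT of KI litters. This setting therefore compared KO with WT of KI litters only, without the KO littermates. Correlations of the deviations of same-numbered arrays ran from -0.03 to 0.16, and those of differently numbered arrays from -0.19 to 0.08. These overlapping ranges do not decide whether arrays were paired. The labels do not say that a number marks a shared litter, so the numbers were not taken as pairs. No paired analysis was possible because KO and the WT of KO litters share no number, for the comparisons within KO litters.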
